A study of Mus musculus with 11 samples.

Results

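The 4 Notch receptors of the mouse (Notch1, Notch2, Notch3 and Notch4) and 5 of their ligands (Jag1, Jag2, Dll1, Dll3 and Dll4) were followed through chromatin and RNA data on the early kidney. The rule that picks them uses gene names and no measured value, and they make up 9 of 34631 protein-coding and long noncoding genes with a RefSeq position. All 9 had a start site and an RNA value, and each was looked up in the 6 peak lists. Chromatin came from 3 populations. Cap mesenchyme, which holds the progenitors of the nephron, was collected as Cited1-RFP+ cells at E18.5 from Cited1nuc-TagRFP-T animals, a line of (C57BL/6 x DBA)F1 origin kept on C57BL/6J. Ureteric epithelium, the branching tube that forms the collecting ducts, was collected as Hoxb7-GFP+ cells at E15.5 from Hoxb7myr-Venus/+ animals of (C57BL/6J x CBA/J)F2 origin, also kept on C57BL/6J. The third population was E14, a wild-type embryonic stem cell line of 129/Ola origin, at passage 15. In each, unfixed chromatin was cut with micrococcal nuclease and immunoprecipitated for H3K4me3, a histone mark found at promoters that are active or ready for use, or H3K27me3, the mark deposited by Polycomb complexes. RNA was sequenced from wild-type C57BL/6 metanephric mesenchyme and ureteric epithelium (here called ureteric bud) that were dissected by hand at E11.5. RNA and chromatin therefore come from different ages, and hand-dissected mesenchyme holds more cell types than a sorted population. Every group was 1 sample, so the values below have no replicate spread, no test could be made, and a difference describes these libraries only.

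Notch receptors are single-pass membrane proteins that bind Jagged or Delta-like ligands on a neighbouring cell. Binding leads to cleavage of the receptor by an ADAM protease and then by gamma-secretase, and the freed intracellular domain joins RBPJ and a Mastermind protein on DNA to switch on targets such as the Hes and Hey repressors. In the kidney the pathway is known for its part in giving newly formed nephrons their proximal segments, where Notch2 is the receptor that cannot be spared, and in the balance of cell types in the collecting duct. Dll4 and Notch4 are also well known from the endothelium, and Dll3 and Dll1 from somites and neurons.

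The sequences of 5 promoters are shown because they cover the range of mark patterns found among the 9 genes. Each runs 5′ to 3′ on the strand of its gene from 250 bases before to 50 bases after a RefSeq start site (build GRCm38.p6, which is mm10), and CpG dinucleotides, the usual base composition feature of promoters that carry both marks, are in capitals. Dll4 carried both marks in all 3 populations (chr2:119325534-119325833, plus strand). Dll3 carried both in the kidney populations and H3K4me3 alone in stem cells (chr7:28301736-28302035, minus strand). Dll1 carried both in stem cells alone (chr17:15376883-15377182, minus strand), Jag1 had the largest RNA difference of the 9 (chr2:137116471-137116770, minus strand), and Notch4 had the lowest H3K4me3 peak score of the 9 in both kidney populations (chr17:34564045-34564344, plus strand).
Dll4: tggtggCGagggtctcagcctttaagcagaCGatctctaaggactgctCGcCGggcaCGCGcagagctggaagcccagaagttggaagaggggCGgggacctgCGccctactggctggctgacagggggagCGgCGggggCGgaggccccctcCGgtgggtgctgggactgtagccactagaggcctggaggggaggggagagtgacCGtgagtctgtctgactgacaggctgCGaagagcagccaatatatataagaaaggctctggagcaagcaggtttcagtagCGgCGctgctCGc
Dll3: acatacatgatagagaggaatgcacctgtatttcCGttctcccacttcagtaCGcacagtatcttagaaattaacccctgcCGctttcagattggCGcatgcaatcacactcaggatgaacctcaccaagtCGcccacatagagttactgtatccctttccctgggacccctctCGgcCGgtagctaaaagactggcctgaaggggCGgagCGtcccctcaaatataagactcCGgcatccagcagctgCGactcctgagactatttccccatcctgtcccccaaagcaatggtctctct
Dll1: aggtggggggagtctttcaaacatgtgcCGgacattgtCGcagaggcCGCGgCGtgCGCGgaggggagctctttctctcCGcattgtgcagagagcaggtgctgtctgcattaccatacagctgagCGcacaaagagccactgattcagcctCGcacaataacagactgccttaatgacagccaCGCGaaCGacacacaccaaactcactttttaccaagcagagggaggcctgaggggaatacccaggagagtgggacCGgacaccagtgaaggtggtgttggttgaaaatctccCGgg
Jag1: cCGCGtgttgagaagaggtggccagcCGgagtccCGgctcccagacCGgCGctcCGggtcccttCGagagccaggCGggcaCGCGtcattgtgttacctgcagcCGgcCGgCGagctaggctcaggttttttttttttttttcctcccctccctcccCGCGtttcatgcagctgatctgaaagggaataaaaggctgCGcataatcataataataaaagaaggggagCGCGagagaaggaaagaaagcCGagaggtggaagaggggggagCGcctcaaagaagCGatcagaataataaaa
Notch4: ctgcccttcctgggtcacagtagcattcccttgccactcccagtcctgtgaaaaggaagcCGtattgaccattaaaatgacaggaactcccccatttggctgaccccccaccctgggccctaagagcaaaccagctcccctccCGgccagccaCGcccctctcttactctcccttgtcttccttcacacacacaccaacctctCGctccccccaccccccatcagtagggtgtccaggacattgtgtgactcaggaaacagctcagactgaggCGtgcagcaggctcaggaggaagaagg
These stretches hold 17 CpG in Dll4, 11 in Dll3, 15 in Dll1, 22 in Jag1 and 5 in Notch4, against a median of 13 over 21263 entries of protein-coding genes. A second start of Dll1, further into the gene, has 24. The remaining members have 23 (Notch1), 25 (Notch3), 41 (Notch2) and 63 (Jag2), so Notch4 and Dll3 were the members below the median. Jag2 has more CpG than 99.96% of those entries, and its stretch is 86% G or C. The start sites of the Jag2, Notch3 and Notch4 entries lie inside the outermost start used for the marks. TGGGAA, the core letters of the RBPJ binding site, was searched on both strands and was in none of the 10 entries of the 9 genes, while 24.5% of protein-coding entries hold it. The letters CACNAG, an N-box of the kind bound by Hes proteins, were in the entries of Notch1 (3 matches), Notch3 (2), Notch2, Dll4 and the outer start of Dll1 (1 each), and in 41.9% of protein-coding entries.

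The peak lists held 32992 (cap mesenchyme), 23958 (ureteric epithelium) and 67022 (stem cells) H3K4me3 peaks and 108394, 144362 and 12879 H3K27me3 peaks. The reads behind them are unknown. RNA is given as FPKM, a fragment count per transcript corrected for its length and for library size, added up over the transcripts of a gene. An RNA difference below is the mesenchyme value less the ureteric bud value, each as log2(FPKM + 1). The added 1 makes changes of low genes look smaller, and 4-fold means a difference of at least 2 with 2 FPKM or more in the higher library. For the 9366 genes that reached 1 FPKM in each of the libraries the median difference was -0.46, so values of such genes are to be read against that shift and not against 0. Of the marker genes chosen to check the labels, 7 of 8 nephron progenitor genes were at least 4-fold higher in mesenchyme, Cited1 being the exception (2.78 against 8.34 FPKM), and 9 of 9 ureteric genes were at least 4-fold higher in ureteric bud. H3K4me3 lay at the start of 4 of 5 pluripotency genes in stem cells, 1 in cap mesenchyme and 0 in ureteric epithelium. The ureteric genes did not separate the kidney populations, as either list had H3K4me3 at 7 of 9 starts. H3K27me3 marked 6 of these 9 in the cap mesenchyme list and 5 in the ureteric list, where Hoxb7 had neither mark. Of 8 nephron progenitor starts, the cap mesenchyme list had H3K4me3 at 8 and H3K27me3 at 0, the ureteric list at 7 and 3. The 6 renal stroma markers, all at least 4-fold higher in mesenchyme, summed to 281 FPKM there and 2.34 in ureteric bud. The 8 nephron progenitor genes summed to 221 and 10.5. The 7 early nephron markers summed to 15.52 FPKM in mesenchyme and 200.3 in ureteric bud. Of these 7, 5 had the higher value in ureteric bud, 4 of them by at least 4-fold, and 2 in mesenchyme. The part of stroma in the mesenchyme values was not tested. The 10 endothelial markers, all present and all higher in mesenchyme, summed to 38.2 FPKM there and 4.31 in ureteric bud. None of these 10 was listed at 0. Their starts carried H3K4me3 in 10 of 10 cases in ureteric epithelium and 3 of 10 in cap mesenchyme, against 60% and 63.9% of protein-coding genes.

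Receptor RNA was present in both tissues, and Notch2 and Notch3 made up most of it. In dissected tissue, fewer cells of a type cannot be told apart from less RNA in each. The receptors of the mesenchyme library stood in the order Notch2 (10.4 FPKM), Notch3 (6.77), Notch4 (1.69) and Notch1 (1.53). In ureteric bud the order was Notch3 (12.3), Notch2 (10.3), Notch1 (7.70) and Notch4 (0.853). Notch1 (chromosome 2: 26457902 to 26503822, mm10) had the largest difference of the receptors, -1.79, and was 5.05 times higher in ureteric bud. Relative to the median shift its difference was -1.33. The authors' deposited table gives Notch1 an interval of 1.03 to 2.02 FPKM in mesenchyme and of 6.35 to 9.06 in ureteric bud, and these did not overlap. They cover the uncertainty of the authors' estimate and are no replicate check. Notch1 missed the 4-fold rule, and would pass it with a pseudocount of 0.1 FPKM in place of 1 (-2.26, not corrected for the shift). With ureteric bud FPKM scaled to the same median, and the pseudocount of 1, the difference was -1.33.

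Notch2 (chromosome 3: 98013538 to 98150367), the receptor known to be required for proximal nephron fates, was level between the tissues at a difference of 0.02, which is 0.48 above the median shift. Its intervals in the authors' deposited table, 9.068 to 11.796 FPKM in mesenchyme and 9.065 to 11.504 in ureteric bud, lay almost on top of each other. Notch3 (chromosome 17: 32120820 to 32166896), known above all from mural cells of vessels, differed by -0.78, or -0.32 relative to the shift. The interval of its main transcript in mesenchyme was wide in the authors' deposited table, 2.56 to 9.45 FPKM, and ended below the interval in ureteric bud (10.8 to 13.8). A longer form with the same start was listed there at 0.769 FPKM (0 to 4.12) in mesenchyme and at 0 in ureteric bud. With the bounds of both forms added, the Notch3 range in mesenchyme was 2.56 to 13.6 FPKM, which overlaps that of ureteric bud. Summed over the 4 receptors, mesenchyme held 20.4 FPKM and ureteric bud 31.2. Notch2 gave 51.1% of the sum in mesenchyme and 33.0% in ureteric bud, while the share of Notch1 was 7.47% and 24.7%.

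Notch4 (chromosome 17: 34564286 to 34588543) had the higher value in mesenchyme, 1.69 against 0.853 FPKM (difference 0.54), which among the receptors was otherwise true of Notch2 alone, and there by 0.02. Most of the Notch4 value was assigned to a short transcript. A 1530 bp transcript with a start of its own in the authors' deposited table held 1.02 FPKM in mesenchyme and 0.729 in ureteric bud. That was 60.3% and 85.6% of the gene's total. Its intervals overlapped, at 0.295 to 1.74 against 0.207 to 1.25 FPKM, so the direction of Notch4 is not settled. With the most abundant transcript only, the Notch4 difference was 0.22. Transcripts of 6591 and 6955 bp were at 0.347 and 0.323 FPKM in mesenchyme and at a listed 0 and 7.95e-05 in ureteric bud, where a 6913 bp form stood at 0.123. Since Notch4 is an endothelial receptor, the endothelial marker sums above (38.2 and 4.31 FPKM) belong beside this value, and their part in it was not tested.

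Jag1 made up most of the ligand RNA in both tissues and was far higher in ureteric bud. Jag1 (chromosome 2: 137081451 to 137116520), the ligand of renal vesicles whose loss in people causes Alagille syndrome, stood at 2.18 FPKM in mesenchyme and at 23.8 in ureteric bud. The ratio of the FPKM values was 10.9, and the log2 difference of -2.96 was the largest of the 9 genes. Jag1 was the 1 member of 9 past the 4-fold rule in that direction, and 0 of 9 passed it towards mesenchyme. Over 11319 genes at 1 FPKM or more in either library, 4.24% were 4-fold higher in ureteric bud and 1.92% in mesenchyme. Relative to the median shift the Jag1 difference was still -2.50. Its 3 transcripts all had the higher value in ureteric bud. In the authors' deposited table the 5493 bp form was at 1.65 FPKM (1.20 to 2.10) against 15.3 (13.1 to 17.4), the 11065 bp form at 0.257 against 2.02, and a 924 bp form at 0.273 against 6.47. Jag1 gave 59.8% of the FPKM of the 5 ligands in mesenchyme and 95.7% in ureteric bud, and the ligands summed to 3.65 and 24.8 FPKM.

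The other 4 ligands stayed under 1 FPKM in both libraries. Jag2 (chromosome 12: 112907803 to 112929812), the second Jagged ligand, was at 0.310 FPKM in mesenchyme and 0.636 in ureteric bud, mostly as a transcript that the authors' deposited table marks as having low data. Dll1 (chromosome 17: 15367354 to 15376932) was at 0.569 and 0.207, Dll4 (chromosome 2: 119325784 to 119335666) at 0.448 and 0.191, and Dll3 (chromosome 7: 28293555 to 28301785), which acts inside the cell rather than as a ligand at the surface, at 0.138 and 0.0412. The 3 Delta-like genes thus had the higher value in mesenchyme, by ratios of 2.74, 2.34 and 3.36, while both Jagged genes had it in ureteric bud. The Jag2 difference of -0.32 is 0.14 above the median shift, but that shift comes from genes at 1 FPKM or more in both libraries. With ureteric bud FPKM scaled to the same median before the logarithm, the Jag2 difference kept its sign at -0.14. The intervals of its main transcript overlapped in the authors' deposited table, at 0.103 to 0.430 against 0.251 to 0.828 FPKM, so its direction is not settled. These are low values. For Dll3, FPKM times length came to 9.90 times (mesenchyme) and 2.58 times (ureteric bud) the smallest amount above 0 among genes with a single transcript over 1 kb long. For Dll4 it was 51.2 and 19.2 times, and for Dll1 65.9 and 20.6. The intervals of all 3 Delta-like genes in the authors' deposited table overlapped between the tissues, at 0.193 to 0.693 against 0.0553 to 0.359 FPKM for the main Dll1 transcript and 0.237 to 0.659 against 0.0475 to 0.335 FPKM for Dll4. For Dll4, too, the endothelial sums stand beside the value and their part was not tested.

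**Figure D1:**
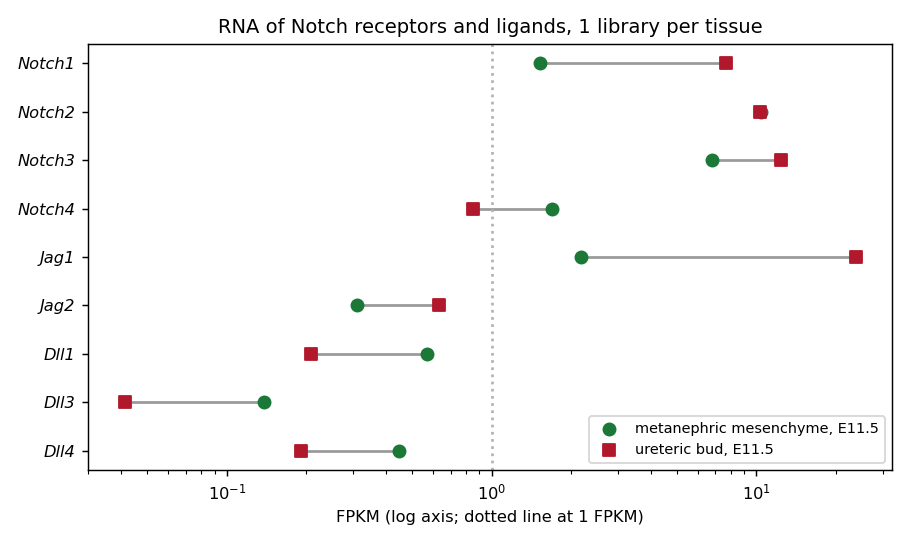
RNA of each gene in FPKM on a log axis, with 1 library per tissue (circle, metanephric mesenchyme; square, ureteric bud) and a line joining the values of a gene. Jag1 and Notch1 are the widest pairs to the right of 1 FPKM, at 2.18 against 23.8 and 1.53 against 7.70, and the 3 Delta-like genes and Jag2 lie to the left of that line in both tissues.

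H3K4me3 was found at the start (plus and minus 1 kb, with at least 1 bp of a peak) of 9 of 9 genes in every population. Among all 32755 genes with a start the cap mesenchyme share was 50.2%, that of ureteric epithelium 46.3% and the stem cell share 55.8%, and among protein-coding genes 63.9%, 60% and 67.8%. H3K27me3 was at ligand starts and at no receptor start. Of 5 ligands it marked 2 in each kidney population (Dll3 and Dll4) and 3 in stem cells (Jag1, Dll1 and Dll4), and of 4 receptors 0 in every population. In the same order, over all genes, H3K27me3 was at 7.02%, 9.89% and 9.6% of starts (protein-coding 7.68%, 11% and 11.7%), so 0 of 4 receptors is near the background. Both marks together, the state called bivalent in stem cells, were at 2, 2 and 3 of the 9 starts in that order, against 4.89%, 5.18% and 8.88% of all genes. In a sorted population the marks need not lie in the same cell.

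**Figure D2:**
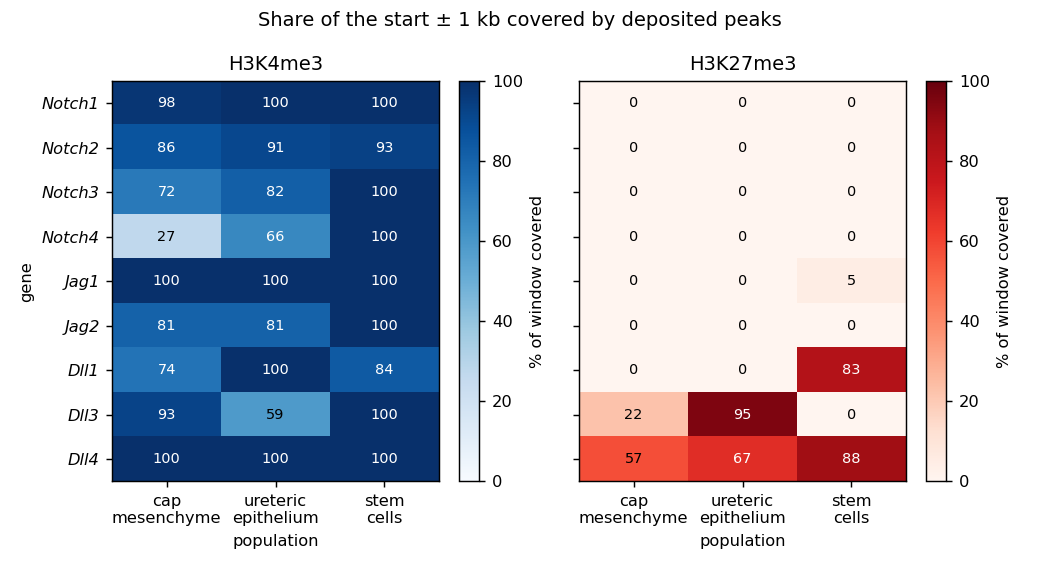
Percent of the window of 1 kb either side of each start covered by deposited peaks, for H3K4me3 (left) and H3K27me3 (right), with genes in rows and populations in columns. H3K4me3 fills most windows, the lowest being Notch4 in cap mesenchyme (26.6%), and H3K27me3 is limited to Jag1, Dll1, Dll3 and Dll4 in this window.

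Dll4, the Delta-like ligand of sprouting vessels, carried both marks in all 3 populations, a state shared by 1.87% of all genes. H3K4me3 covered 100% of its window in each. H3K27me3 covered 57.3% (cap mesenchyme), 67.2% (ureteric epithelium) and 88.2% (stem cells). The H3K27me3 signal reached well upstream. In cap mesenchyme 12 separate peaks lay from -4.675 to 2.60 kb relative to the start, the strongest with a score of 643, above 99.0% of that list. In ureteric epithelium 3 wider peaks spanned -4.67 to 3.21 kb, with scores between 37.5 and 48.3 in a list whose median was 39.3. With a minimum score of 50 in every list, a setting added after the data were seen, the ureteric call at Dll4 was lost and its other calls stayed. The ureteric call was also lost with all H3K27me3 lists at the length of the shortest. Of 472 coding genes with both marks in all 3 populations and an RNA value, 78.2% were lower than Dll4 in mesenchyme and 65.9% in ureteric bud.

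Dll3 carried both marks in the kidney populations and H3K4me3 alone at its start in stem cells, a pattern of 0.676% of 21151 coding genes. H3K27me3 covered 22.5% of the window in cap mesenchyme, as 1 peak of 450 bp, and 95.1% in ureteric epithelium, as 1 peak of 2593 bp. H3K4me3 went the other way and covered 92.5% and 58.6%, with a peak of 1.89 kb against 1.17 kb. In stem cells H3K4me3 covered the whole window and 73.3% of the gene body, and the H3K27me3 peak there lay at the far end of the gene, 7.62 to 8.35 kb from the start, with a score of 44.0 close to the list's lowest of 40. The cap mesenchyme call was lost when H3K27me3 had to cover 50% of the window, and the ureteric call with all H3K27me3 lists at the length of the shortest.

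Dll1 carried both marks in stem cells and H3K4me3 alone in both kidney populations, as did Jag1, a pattern of 4.02% of coding genes. In stem cells H3K27me3 covered 82.6% of the Dll1 window, and 5 peaks lay from -2.65 to 3.84 kb relative to the start, the strongest with a score of 350. None was found in that stretch in cap mesenchyme or ureteric epithelium. The Dll1 window is centred on its outermost RefSeq start, and the transcripts of the RNA table begin 884 bp further in. With the window moved to the inner RefSeq start, the 6 calls of Dll1 were the same. Jag1 differed from Dll1 in strength. Its stem cell H3K27me3 was 1 peak of 439 bp beginning 0.9 kb into the gene, covering 5.05% of the window, with a score of 46.4 that exceeded 18.55% of the list. With the upper 50% of peaks, a score of at least 50, or 50% of the window required, Jag1 had H3K4me3 alone in stem cells as well.

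The receptors and Jag2 had H3K4me3 alone at the start in all 3 populations, as had 35.5% of all genes. Among these 5 genes Notch4 had the shortest and lowest-scoring H3K4me3 peak in both kidney populations. Its peak was 0.532 kb wide with a score of 79.4 in cap mesenchyme and 1.79 kb with a score of 124 in ureteric epithelium, above 14.9% and 29.4% of the peaks of those lists. In stem cells it was 3.23 kb wide with a score of 1069, above 88.6%. The cap mesenchyme call was lost with the upper 50% of peaks, with lists of equal length and with 50% of the window required, and the ureteric call with the upper 50% of peaks. Notch4 is also the member with the fewest CpG in its printed promoter. Jag2 had scores of 601, 189 and 112 in the 3 populations in that order, above 53.9%, 38.7% and 30.9% of each list, and its ureteric and stem cell calls were lost with the upper 50% of peaks, the stem cell call also with lists of equal length. With the upper 50% of peaks the count of members with H3K4me3 in ureteric epithelium was 6 of 9, without Notch4, Jag2 and Dll3.

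**Figure D3:**
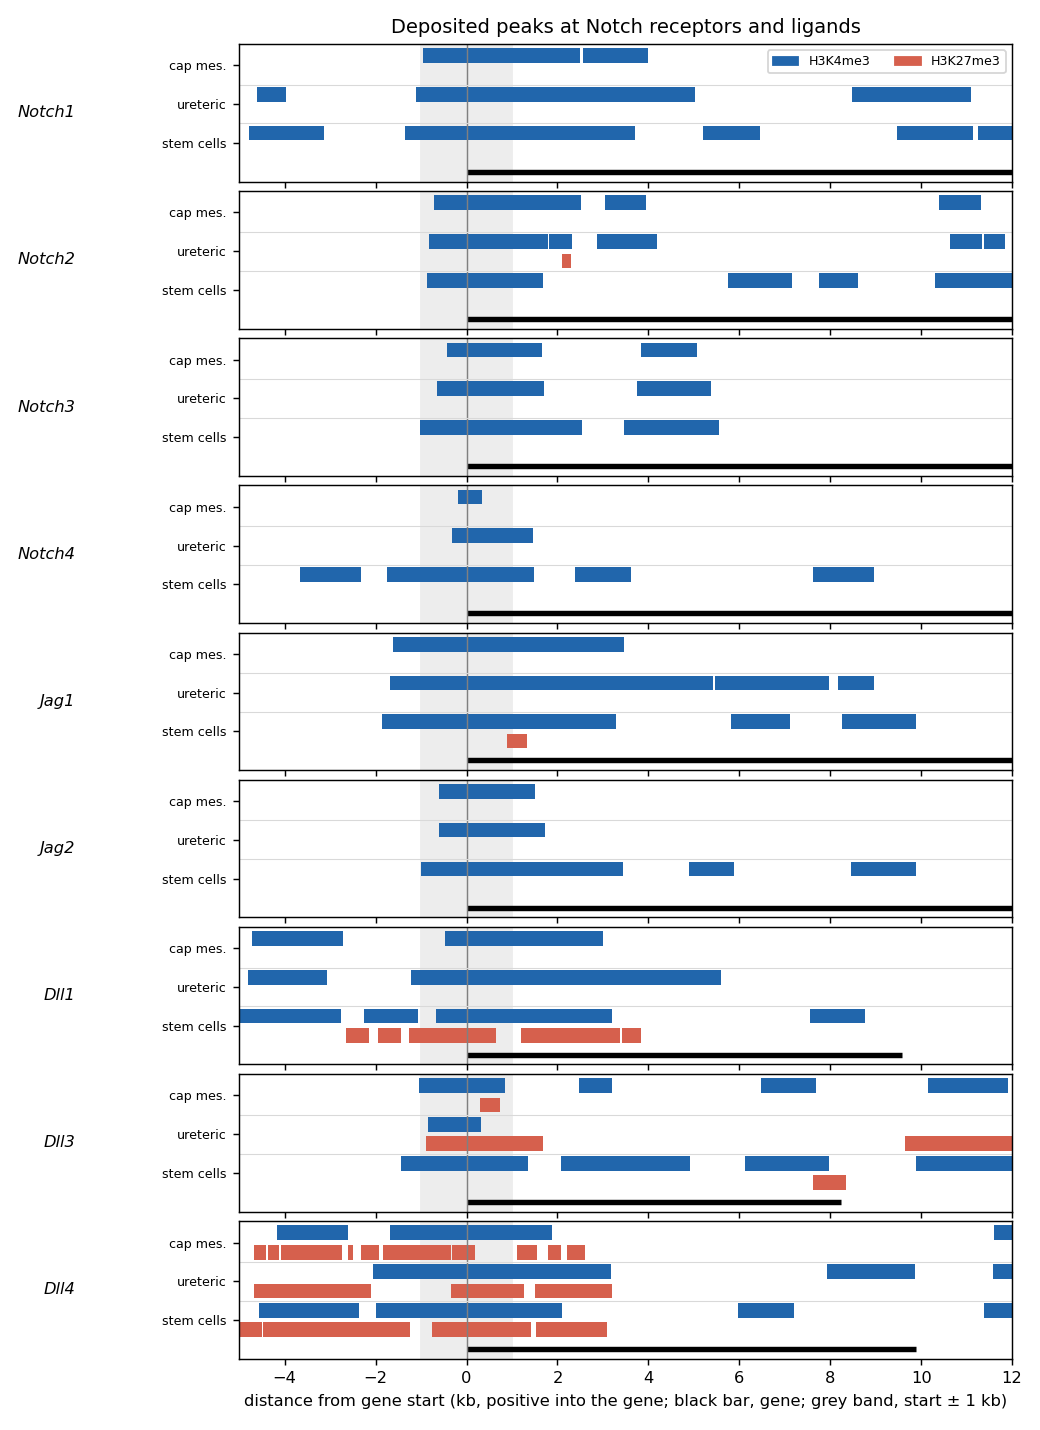
Deposited peaks within 5 kb before and 12 kb after the start of each gene, with 3 populations per panel, H3K4me3 in blue above H3K27me3 in red; the black bar is the gene and the grey band the window of 1 kb either side. Dll4 shows red blocks in every population, Dll1 in stem cells alone, Dll3 over its start in both kidney populations, and the receptors show only the small red block of Notch2 in ureteric epithelium.

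The H3K4me3 peaks of several members were wide in ureteric epithelium. The peak over the Jag1 start was 7.095 kb there, that of Dll1 6.81 kb, that of Notch1 6.13 kb and that of Dll4 5.22 kb, wider than 99.6%, 99.5%, 99.2% and 98.5% of the list. In cap mesenchyme the same peaks measured 5.08, 3.49, 3.45 and 3.56 kb, wider than 98.4%, 93.1%, 92.8% and 93.5%. The widest peak at the start was wider in ureteric epithelium for 7 of 9 genes, the exceptions being Notch2 (2.62 against 3.24 kb) and Dll3. Among 12549 coding genes with such a peak in both populations 25.1% were wider in ureteric epithelium, and the median ratio was 0.921. Dll1 had a ratio of 1.95 and Notch1 of 1.78, exceeded by 1.04% and 1.46% of those genes. The Notch4 ratio of 3.36 rests on the short cap mesenchyme peak. A second cap mesenchyme peak of Notch1 follows the first at a short gap. With peaks up to 500 bp apart joined, a setting added after the data were seen, the Notch1 ratio was 1.24 and that of Jag1 2.10. The count of 7 stayed with joining. With bases covered within 5 kb of the start, also not a planned setting, the count was 8, as the Notch2 ratio became 1.08. By that measure the ratios of Dll1, Notch1 and Dll4 were lower than by peak width, at 1.45, 1.38 and 1.02. In the joined lists 25.6% of coding genes were wider in ureteric epithelium and by covered bases 24.6%.

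**Figure D4:**
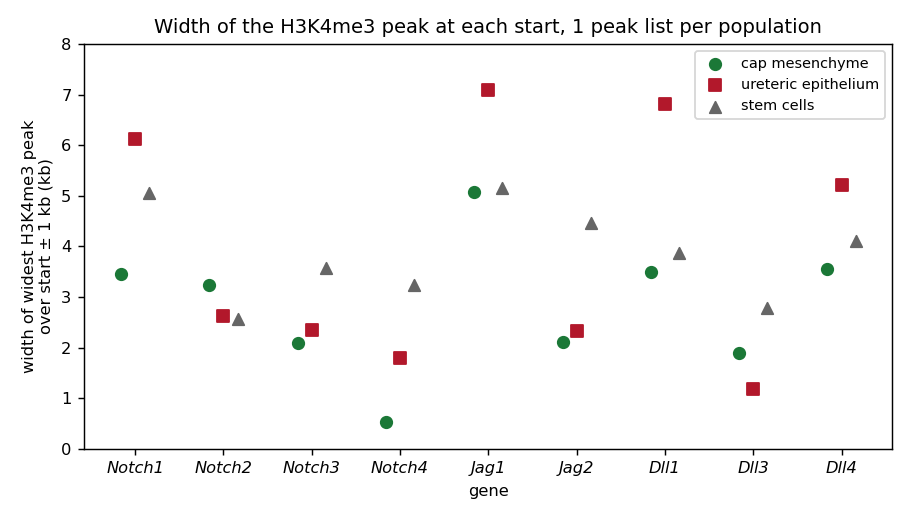
Width in kb of the widest H3K4me3 peak over each start, with 1 peak list per population (circle, cap mesenchyme; square, ureteric epithelium; triangle, stem cells). The squares of Jag1, Dll1, Notch1 and Dll4 lie above the other symbols of their genes, at 5.22 to 7.095 kb, and those of Dll3 and Notch2 below the circles.

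Wide ureteric peaks were found at genes of high and of low RNA. Jag1 and Notch1 were at 23.8 and 7.70 FPKM in ureteric bud, but Dll1 and Dll4, with peaks nearly as wide, were at 0.207 and 0.191. Notch2 and Notch3, at 10.3 and 12.3 FPKM, had peaks of 2.62 and 2.35 kb. The RNA is from younger tissue than the chromatin, so these values are set side by side across ages. Endothelial marker starts had H3K4me3 in 10 of 10 cases in ureteric epithelium, against 60% of protein-coding genes. Those cells were collected as Hoxb7-GFP+, and their purity was not tested. The part of other cell types in the ureteric peaks of Dll4 and Notch4 was not tested.

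H3K27me3 in the gene body was mostly that of Dll4, Dll3 and, in stem cells, Dll1. From start to end of the gene it was present in 2 of 9 genes in cap mesenchyme (Dll3 and Dll4), 3 in ureteric epithelium (also Notch2) and 4 in stem cells (Jag1, Dll1, Dll3 and Dll4), against 23.7%, 30.3% and 12.9% of all genes. The kidney counts are near that background. Dll4 was covered over 13.1%, 29.9% and 30.1% of its 9.88 kb and Dll1 over 33.9% of its 9.58 kb in stem cells. Notch2, the longest of the 9 at 137 kb, had 3 ureteric peaks that covered 0.574%, with scores of 30.5 to 35.4 in a list that begins at 30. Notch1, Notch3, Notch4 and Jag2 had none in any population. The share of the body covered by H3K4me3 was highest in stem cells for 6 of the 9 genes, in ureteric epithelium for Dll1 and Dll4, and in cap mesenchyme for Notch2. In stem cells it covered 32.8% of Notch1 in 6 peaks, 24.6% of Notch3 in 7, 33.8% of Jag1 in 5 and 34.6% of Jag2 in 4, against 15.1%, 7.59%, 9.89% and 6.80% in cap mesenchyme. The stem cell list was the longest of the H3K4me3 lists and covered 136 Mb, against 55.1 (cap mesenchyme) and 42.4 (ureteric epithelium). The share over all genes was not computed, so the count of 6 cannot be read as particular to these genes.

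Counts of 4-fold different genes among those that act with the receptors and ligands belong beside the shares over all 11319 genes. Of these, 4.24% were 4-fold higher in ureteric bud and 1.92% in mesenchyme. In lists this short, the counts are not read as a difference from those shares. Of 21 genes for handling of receptors and ligands (proteases, gamma-secretase subunits, glycosyltransferases and ubiquitin ligases), 16 reached 1 FPKM in either library and 0 were 4-fold different, with a median difference of -0.30. The protease Adam10 was at 28.3 FPKM in mesenchyme and 21.9 in ureteric bud. Of 14 genes of the nuclear complex and its regulators all reached 1 FPKM and 2 were at least 4-fold higher in ureteric bud. They were Dtx4, a Deltex ubiquitin ligase (2.00 against 16.1 FPKM, -2.51), and Nrarp, a feedback inhibitor that Notch signalling itself switches on (0.706 against 6.18, -2.07). Rbpj, the DNA-binding partner, was at 5.99 and 5.16 FPKM. The same median over all 11319 genes was -0.47.

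Of the 9 Hes and Hey genes, 5 reached 1 FPKM and 0 were 4-fold different, with a median of 0.66. They were listed by family, and whether Notch switches on each of them here was not tested. Hes1 was the highest in mesenchyme (7.45 against 8.82 FPKM in ureteric bud) and Hes6 the highest in ureteric bud (5.80 against 11.3). The Hey genes had the higher value in mesenchyme, with Hey2, an arterial and cardiac repressor, at 2.14 and 0.0784 FPKM, Hey1 at 2.93 and 1.49, and Heyl at 1.26 and 0.117. Hey2 and Heyl are also vascular genes, the endothelial sums of 38.2 and 4.31 FPKM stand beside them, and their part was not tested. Dlk1, a Delta-like membrane protein without the domain that binds Notch receptors in the usual way, was at 9.99 FPKM in mesenchyme and 0.514 in ureteric bud (2.86), the 1 gene of 3 related ligands past the 4-fold rule.

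H3K27me3 lay at the starts of some genes of every list in at least 1 population. In the order cap mesenchyme, ureteric epithelium, stem cells, it was at 3, 4 and 6 of the 9 Hes and Hey genes. For handling genes with a start it was at 1, 1 and 3 of 19, and for nuclear genes at 0, 1 and 3 of 14. It was at 2 of 3 related ligands in each population. Over all genes the shares were 7.02%, 9.89% and 9.6%. The call differed between the kidney populations at 4 genes. The share over all genes was not computed, so that count cannot be read as particular to the pathway. Hey2, Dtx1 (a Deltex protein) and Neurl1a (a Neuralized ubiquitin ligase) had H3K27me3 in the ureteric list but not the cap mesenchyme list. Their best scores were 31.7, 78.9 and 114, the first of these near the list's lowest. Aph1b, a gamma-secretase subunit, had the mark in the cap mesenchyme list alone, with a score of 48.8 and 7.0% of the window.

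**Figure D5:**
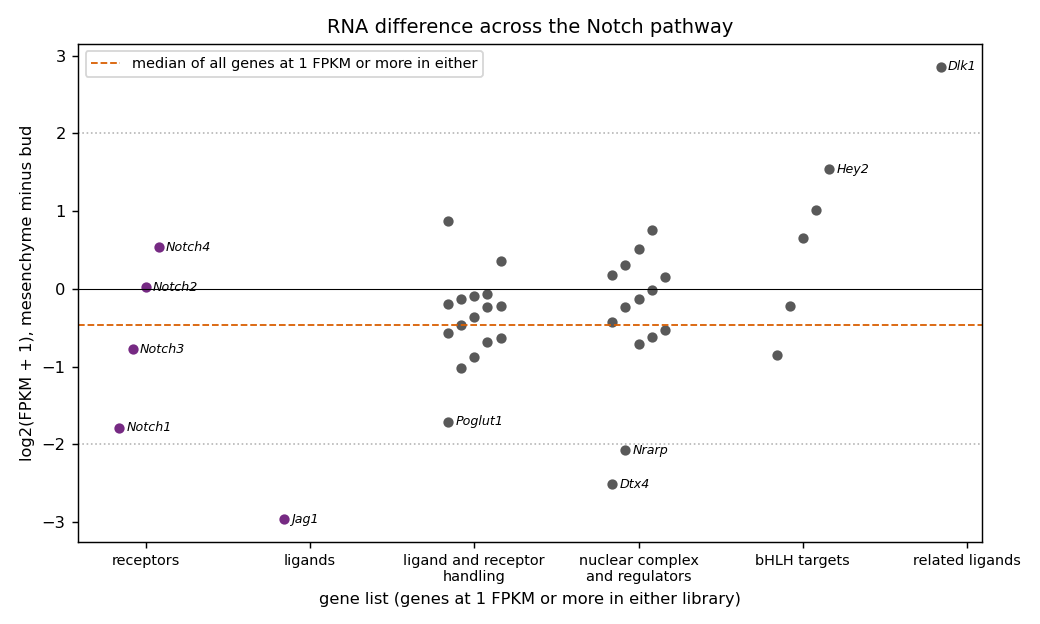
Difference in log2(FPKM + 1), metanephric mesenchyme minus ureteric bud, of each gene at 1 FPKM or more in either library, by list (purple, the receptors and ligands; grey, the other pathway genes); the dashed line is the median of all such genes (-0.47) and the dotted lines mark 4-fold. Jag1, Dtx4 and Nrarp lie below the lower dotted line and Dlk1 above the upper one.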

How the data were processed

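The 6 peak lists give each peak a score, the authors' own value as deposited, whose meaning is not given in the sources used here. The submitters' processing notes name Bowtie2, MACS, TopHat, Cufflinks, Cuffdiff and mm10. Versions, settings and pooling are not given in the sources used here. The authors deposited RNA as FPKM per transcript with an interval. Of 138486 transcripts, 104442 were paired with a gene by RefSeq accession, versions ignored (1245 antisense ones left out), and summed per gene, and 28 belong to the 9 genes. Gene positions and promoter sequences are RefSeq's for GRCm38.p6. Strand came from the promoter entries (27025 genes) or from how the RNA table sorts its loci (5730), a rule that was right for all 24066 loci of known strand. The 1876 genes without a strand were left out at starts. Percentages of all genes serve as background. Overlap and fold rules were tested on simulated data. Python 3.11.15, pandas 2.3.3 and numpy 2.4.6 were used. Genes, lists and rules were chosen with earlier results of these data known. Named pathway genes were those 4-fold different, those whose H3K27me3 call differed between the kidney populations, and the highest Hes or Hey gene per library. Adam10, Rbpj, Hey1 and Heyl were added after their values were seen. The 3 input libraries were not analysed here.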

Additional observations from a re-analysis of the deposited data

How the results depend on the processing

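No paired analysis was possible because each group holds 1 sample, and for the same reason no replicate could be left out. Of 55 recomputed counts over the 9 genes, 45 stayed within 1.5 times the value given. Genes 4-fold higher in ureteric bud became 2 (Jag1 and Notch1) with a pseudocount of 0.1 FPKM. When H3K27me3 had to fill 50% of the window, the cap mesenchyme count at starts became 1, and with at least 10% of the body covered the counts in bodies became 1 in cap mesenchyme and 2 in stem cells. With all H3K27me3 lists at the length of the shortest, the ureteric counts became 0 at starts and 0 in bodies. With a score of at least 50, chosen after seeing the data, they became 1 and 1, and the stem cell count in bodies became 2, as it did with the upper 50% of peaks by score. These settings count fewer peaks or ask for more cover. For single genes, 8 of 135 H3K4me3 calls and 21 of 270 H3K27me3 calls changed, the former at Notch4, Jag2 and Dll3. No RNA difference of a member changed sign under the alternatives run, but some changed in size. With ureteric bud scaled to the same median, Notch2 went from 0.02 to 0.49. With a pseudocount of 0.1 FPKM, Dll1 went from 0.38 to 1.12, Dll3 from 0.13 to 0.75 and Dll4 from 0.28 to 0.91. FPKM depth limits Dll3 most, and no setting supplies a replicate.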

Other observations

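Neighbouring starts share some of these windows. The long noncoding gene Gm35978 begins 105 bp upstream of Notch1 on the other strand and was listed at 0 FPKM in mesenchyme and 0.175 in ureteric bud. Gm14207, a long noncoding gene on the other strand, begins 413 bp inside Dll4, had both marks in all 3 populations like Dll4, and was at 0.0383 FPKM in mesenchyme and a listed 0 in ureteric bud. The H3K4me3 peak at the far end of Notch4, 10.6 kb wide in cap mesenchyme and beginning 21.8 kb from the Notch4 start, reaches Gpsm3 and Pbx2, whose starts are 25.5 and 28.0 kb from that of Notch4; Pbx2, a Hox cofactor, was at 30.4 FPKM in mesenchyme and 45.03 in ureteric bud.

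Genes most like a member were sought among coding genes with the same 6 promoter calls, by the distance in log2(FPKM + 1) over the 2 RNA libraries. Jag1 shares its calls with 851 coding genes, a pool that rests on the weak stem cell H3K27me3 call. The nearest of them, Arhgef28 (1.92 and 17.3 FPKM), lay at a distance of 0.45, followed by Samd5 (1.34 and 20.7 FPKM) at 0.48. For the 4 receptors, which share their state with 9983 coding genes, the nearest lay within 0.0621: Rpp21 for Notch1, Psrc1 for Notch2, Smyd3 for Notch3 and Usp13 for Notch4. The second nearest were Bok, Pik3c2a, Mbnl2 and Myorg, at 0.0773, 0.0173, 0.0263 and 0.0669.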
